A study of Mus musculus and Homo sapiens with 8 samples.

Results

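A set of 10 homing and adhesion genes, several of which place and hold blood stem cells in the bone marrow, was followed through loss of ANP32B. ANP32B is a leucine-rich acidic protein of the nucleus that can carry histones. The genes were CXCR4, CCR2, ITGA4, ITGA5, ITGB1, ITGB2, ITGAL, CD44, SELPLG and CD9. They were taken by symbol from the human tables, and by the same symbols with only the first letter capital from the mouse tables. All 10 were listed in both species, out of 20296 human and 17097 mouse genes, and all 10 passed the filter on low counts in each species. The genes were chosen by name with their log2 fold changes in both comparisons already known, so their values are given as a description.

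RNA sequencing covered 8 libraries in 2 experiments. KU812, an established human chronic myelogenous leukemia line with basophil features, carried a hairpin labelled shANP32B (n = 2) or a control hairpin labelled shNC (n = 2). The count columns of the shANP32B libraries are headed h8, a name the labels do not explain, and their group comes from the sample labels. LSK cells, a marrow gate named for absent lineage markers and for Sca-1 and c-Kit, came from C57BL/6 mice that were Anp32b-KO (n = 2) or WT (n = 2). The labels give no age, no deleted exons, no Cre and no hairpin sequence, and they do not say whether replicates were separate animals or cultures, so spreads and p-values measure only the variation between these libraries, which may be technical. Total counts ran from 24416691 to 28209409 in KU812 and from 10549358 to 15683480 in LSK libraries, so that 3 counts correspond to 0.107 to 0.122 CPM (counts scaled to a common library size) in KU812 and 0.197 to 0.286 CPM in LSK libraries. ANP32B itself stood at 40.4 and 38.2 CPM in shANP32B cells, against 250 and 286 CPM in shNC cells. Anp32b had 2473 and 3559 counts in KO cells, against 12112 and 7655 counts in WT cells, a log2 fold change of -1.76 with an adjusted p of 0.148 (edgeR), although both KO libraries lay far below both WT libraries. Genes of the LSK gate, Kit, Ly6a and Cd34 among them, were all detected in every LSK library (9 of 9), with summed levels of 2081 and 2007 CPM in KO and of 2073 and 1856 CPM in WT. All 10 basophil and mast cell markers were detected in every KU812 library.

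Homing of stem and progenitor cells is a sequence of steps. Cells roll on vessel walls through selectin ligands such as PSGL-1, the product of SELPLG, and through glycosylated CD44, which also binds hyaluronan in the marrow. The chemokine CXCL12, made by marrow stroma, then signals through CXCR4 and switches integrins to a binding state. VLA-4, made of the ITGA4 and ITGB1 products, grips VCAM-1 and fibronectin, VLA-5, made of the ITGA5 and ITGB1 products, grips fibronectin, and LFA-1, made of the ITGAL and ITGB2 products, grips ICAM proteins. CCR2, the receptor for CCL2, guides monocytes and some progenitors to inflamed sites, and CD9 is a tetraspanin that associates with integrins in the membrane.

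Promoters of 7 of the 10 mouse members were matched in RefSeq (GRCm38.p6). Shown are the 250 bases before the transcript start, on the gene's strand, of the members Cxcr4, Itga4 and Cd44, whose human counterparts were lower in shANP32B cells. The windows are chr1:128592300-128592549 (minus strand), chr2:79255176-79255425 (plus strand) and chr2:102901666-102901915 (minus strand). Capitals mark matches on either strand to 5 motifs. They are GGGCGG, which is known as a GC box, TATAAA, the letters of a TATA box, and CCAAT, another common promoter motif. The last are ACGTG and its relative with a first G, spelled GCGTG, which form the core of hypoxia response elements.
Cxcr4: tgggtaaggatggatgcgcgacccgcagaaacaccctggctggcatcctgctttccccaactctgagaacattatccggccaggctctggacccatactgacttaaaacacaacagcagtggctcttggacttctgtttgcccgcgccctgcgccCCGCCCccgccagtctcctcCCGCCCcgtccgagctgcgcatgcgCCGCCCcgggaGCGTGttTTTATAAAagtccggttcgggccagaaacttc
Itga4: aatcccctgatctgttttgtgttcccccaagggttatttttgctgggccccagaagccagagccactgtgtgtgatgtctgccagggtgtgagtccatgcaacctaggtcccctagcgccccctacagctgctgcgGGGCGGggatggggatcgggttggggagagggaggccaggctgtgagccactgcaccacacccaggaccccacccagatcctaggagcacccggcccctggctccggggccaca
Cd44: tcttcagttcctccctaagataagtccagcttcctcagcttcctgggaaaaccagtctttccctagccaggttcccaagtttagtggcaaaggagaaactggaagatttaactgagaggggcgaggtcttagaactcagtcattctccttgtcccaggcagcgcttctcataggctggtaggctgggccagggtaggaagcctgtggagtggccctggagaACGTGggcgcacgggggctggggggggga
The Cxcr4 window holds 3 GC boxes, their first bases at 95, 75 and 50 bases before the start, 1 GCGTG at 39 bases, and 2 TATAAA matches that overlap each other on opposite strands, at 32 and 30 bases. Itga4 has 1 GC box at 114 bases, and Cd44 has 1 ACGTG at 29 bases and none of the other letters searched. None of the 3 windows holds CCAAT. Among all 32851 mouse promoter windows of the same length, GGGCGG occurs in 32.7%, TATAAA in 12.4%, GCGTG in 28.2%, ACGTG in 16.6% and CCAAT in 33.8%. These matches describe the letters only.

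The KU812 comparison asks how the leukemia line differs once ANP32B is knocked down. CXCR4 and the genes for VLA-4's alpha chain, LFA-1's beta chain, PSGL-1 and CD44 fell in shANP32B cells, and CCR2 rose. In the test across all genes (edgeR quasi-likelihood test, adjusted p under 0.05), 5 of the 10 members were called lower, beside 9.06% of the 16529 genes tested, and 1 was called higher, beside 7.53%. These members were listed with this comparison known, so nothing is read from the counts. ITGA5, ITGB1, ITGAL and CD9 were not called. The median log2 fold change of the 10 was -0.32, beside 0.0040 for all genes tested. In bulk RNA, fewer cells with a transcript and less transcript per cell cannot be told apart.

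CXCR4 was read at 24 and 22 counts in the shANP32B libraries, against 319 and 266 in the shNC libraries. On the scaled level these are 0.926 and 0.887 CPM in shANP32B cells, against 11.4 and 10.8 CPM in shNC cells. Both shANP32B libraries lay far below both shNC libraries, and replicates were close to each other. The level was 12.3-fold lower, a log2 fold change of -3.61 with a standard error (SE) of 0.30 and a 95% confidence interval of -4.27 to -2.97. With each library left out in turn the log2 fold change stayed between -3.66 and -3.58.

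CCR2, the other chemokine receptor, moved the opposite way from a low level. It had 73 and 92 counts (2.82 and 3.71 CPM) in shANP32B cells, against 23 and 22 counts (0.823 and 0.895 CPM) in shNC cells, or 1.92 ± 0.43 (SE) on the log2 scale. The groups did not overlap, but the call was lost without the second shANP32B library, where the log2 fold change was 1.70.

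**Figure D1:**
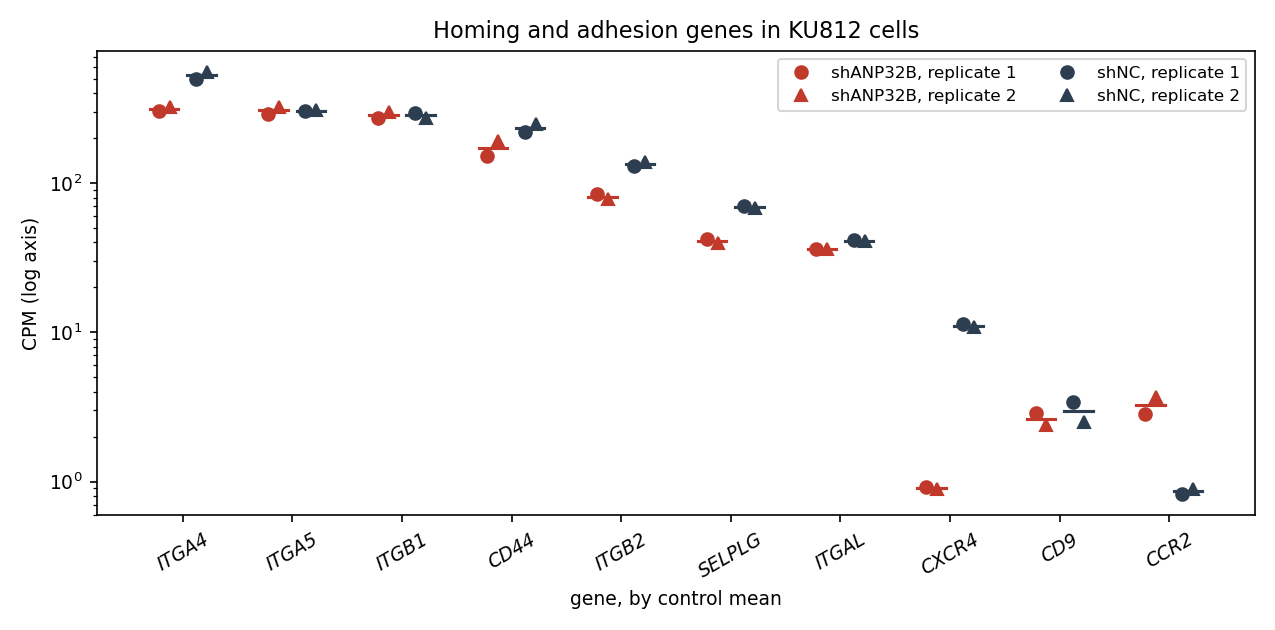
CPM on a log axis for the 10 genes in KU812 cells, with points for the single libraries (red shANP32B, dark shNC; circle replicate 1, triangle replicate 2) and bars for group means (n = 2). CXCR4 stands at 0.926 and 0.887 CPM in shANP32B cells below 11.4 and 10.8 CPM in shNC cells, CCR2 stands higher in shANP32B cells, and ITGA5 and ITGB1 overlap.

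Among the integrin subunits the gene of the VLA-4 alpha chain was called lower, and that of its partner was not called. ITGA4 was read at 306 and 322 CPM in shANP32B cells, against 500 and 556 CPM in shNC cells, or -0.75 ± 0.10 (SE) on the log2 scale. ITGB1 had 274 and 301 CPM in shANP32B cells, against 297 and 272 CPM in shNC cells, and the groups overlapped (log2 fold change 0.015, interval -0.21 to 0.24). ITGA5, whose product shares that beta chain, also overlapped, at 290 and 324 CPM in shANP32B cells, against 302 and 308 CPM in shNC cells, at a log2 fold change of 0.011 (interval -0.21 to 0.23). For ITGA5 and ITGB1, log2 differences larger than about these interval ends lie outside the 95% limits, and the sign of both changed with the library left out.

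Set against its partner within each library, ITGA4 had 1.12 and 1.07 reads per ITGB1 read in shANP32B cells, against 1.69 and 2.04 in shNC cells. The ITGA4 to ITGB1 ratio in shANP32B cells was 0.586 of that in shNC cells, and the libraries did not overlap. The ITGA5 to ITGB1 ratio was 1.06 and 1.08 in shANP32B cells, against 1.02 and 1.13 in shNC cells, and overlapped. These ratios of reads depend on neither library size nor scaling, but they are not corrected for transcript length and do not give protein stoichiometry.

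LFA-1 showed the reverse arrangement, with the beta chain lower. ITGB2 was read at 84.3 and 77.8 CPM in shANP32B cells, against 131 and 138 CPM in shNC cells, or -0.73 ± 0.11 (SE) on the log2 scale. ITGAL had 36.2 and 36.1 CPM in shANP32B cells, against 41.5 and 40.9 CPM in shNC cells. Its groups did not overlap, but its log2 fold change of -0.19 (SE 0.13, interval -0.47 to 0.096) was not called. The ITGAL to ITGB2 ratio was 0.429 and 0.464 in shANP32B cells and 0.317 and 0.297 in shNC cells. ITGB2-AS1, a transcript named as antisense to ITGB2, had 20 and 4 counts in shANP32B cells, against 33 and 30 in shNC cells, and without the strand setting its reads and those of ITGB2 cannot be told apart.

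The rolling receptors were lower too. SELPLG had 41.9 and 39.7 CPM in shANP32B cells, against 70.6 and 68.2 CPM in shNC cells, or -0.77 ± 0.13 (SE) on the log2 scale. CD44 was read at 152 and 190 CPM in shANP32B cells, against 220 and 250 CPM in shNC cells, or -0.46 ± 0.13 (SE) on the log2 scale. The CD44 groups did not overlap, but the call was lost without the first shANP32B library, where the log2 fold change was -0.31. CD9 was near the bottom of the range, at 2.89 and 2.38 CPM in shANP32B cells, against 3.40 and 2.52 CPM in shNC cells. Its groups overlapped, and with 59 to 95 counts per library the interval of its log2 fold change (-0.17) ran from -0.95 to 0.61, so a change of either sign within it was not detectable at this depth.

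Of the 10 members 6 had both shANP32B libraries below both shNC libraries, beside 28.9% of all genes tested, and 1 had both above, beside 29.5%. Scaled by library totals alone, without TMM, all genes split into 1182 lower and 1474 higher calls rather than 1497 lower and 1244 higher, and the members' 5 lower and 1 higher calls were the same genes.

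**Figure D2:**
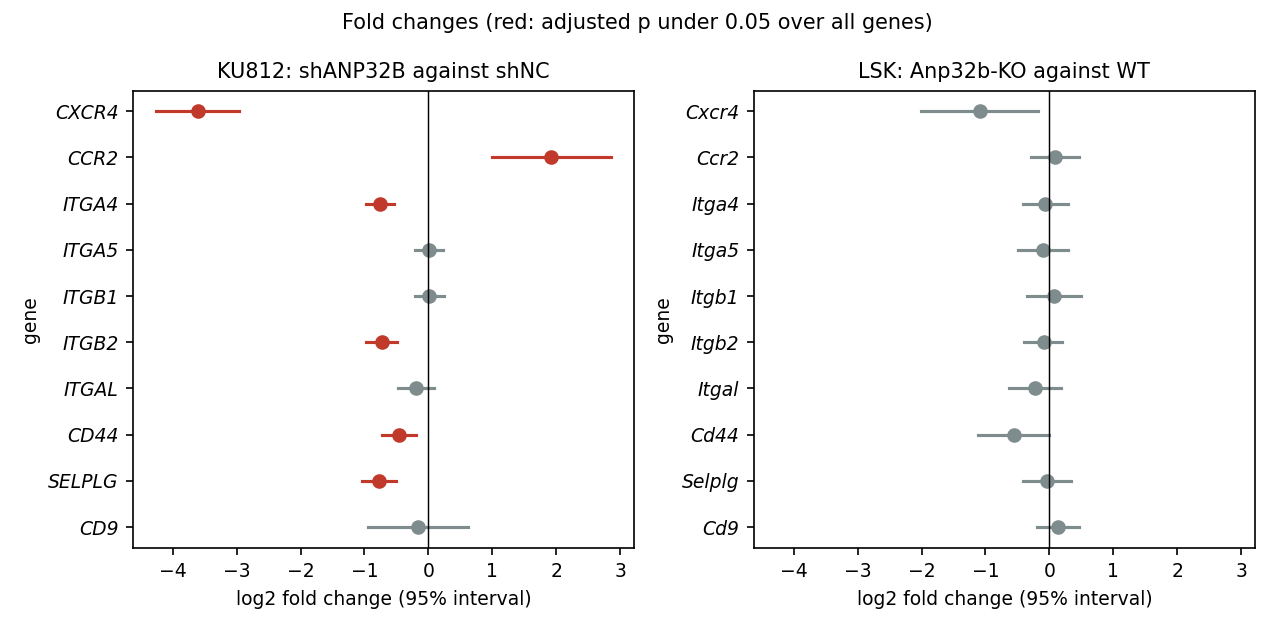
Log2 fold changes (points) with 95% confidence intervals (lines) of the 10 genes, shANP32B against shNC in KU812 cells on the left and Anp32b-KO against WT in LSK cells on the right; red marks an adjusted p under 0.05 over all genes. CXCR4 at -3.61 and CCR2 at 1.92 stand outermost in KU812 cells, and no LSK point is red.

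The KU812 profiles most like that of CXCR4 were looked for among 12559 other genes averaging 50 or more counts, by the Euclidean distance between log2 CPM profiles centred over the 4 libraries. The nearest were TMEM56 (distance 0.361), PNCK (0.458), a calmodulin-dependent kinase gene, CA9 (0.617), a carbonic anhydrase, RNASE2 (0.647), an eosinophil granule ribonuclease, and SLC6A8 (0.681), the creatine transporter. TMEM56 had 2.16 and 2.26 CPM in shANP32B cells, against 20.3 and 19.8 CPM in shNC cells. RNASE2 had 2.32 and 2.82 CPM in shANP32B cells, against 18.7 and 20.7 CPM in shNC cells, and its paralog RNASE3 could share some reads with it. With 4 libraries this likeness says little more than that these genes fell by a similar factor.

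Other genes of homing and adhesion were taken from 8 lists, which were written with earlier results of these data known but not picked for how their genes moved. Of 196 genes in the lists 178 were listed in the human tables and 166 tested, of which 12 fell and 31 rose, beside 9.06% and 7.53% of all genes tested. Their median log2 fold change was 0.13, beside 0.0040 for all genes. Without the first or the second shANP32B library 18 and 20 rose, and without the second shNC library 26 fell. Scaled by library totals alone, 8 fell and 39 rose. The shares of all genes tested, 9.06% lower and 7.53% higher, also stand beside the KU812 counts of each list below.

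The tetraspanins, membrane organisers to which CD9 belongs, had 20 of 23 fold changes above 0, beside 8329 of 16529 over all genes tested. Of the 23 tested 10 rose and 2 fell, beside 7.53% and 9.06% of all genes tested, with a median log2 fold change of 0.55. CD63, a marker of granule and late endosome membranes, had 324 and 356 CPM in shANP32B cells, against 157 and 199 CPM in shNC cells (log2 fold change 0.93, SE 0.12, adjusted p = 2.79e-04, edgeR). CD151, CD82 and CD81, which associate with integrins, rose by 0.64, 0.60 and 0.58 on the log2 scale, and in each the 2 shANP32B libraries lay above the 2 shNC libraries. TSPAN14 and TSPAN18 were the 2 that fell, by 0.45 and 0.91. TSPAN14 lost its call without the second shANP32B library and with library totals alone, and TSPAN18 without the first library of either group. With the first or the second shANP32B library left out, 7 and 8 tetraspanins rose.

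Chemoattractant receptors other than CXCR4 and CCR2 went both ways, with 5 of 21 higher, 2 lower and a median of -0.12. CXCR5, known as the CXCL13 receptor of B cells, was read at 22.7 and 18.8 CPM in shANP32B cells, against 4.54 and 4.03 CPM in shNC cells (log2 fold change 2.27, SE 0.22, adjusted p = 2.04e-05, edgeR). C3AR1, the receptor of the complement fragment C3a, rose by 1.40, CCR4 by 0.98 and CCRL2, an atypical chemokine-binding receptor, by 0.82. LTB4R completed the genes that rose, at 0.49, with its call lost without either shANP32B library. CXCR1, with 5 and 6 counts in shANP32B cells, against 33 and 21 in shNC cells, and S1PR4, at 40.3 and 31.3 CPM in shANP32B cells, against 46.1 and 55.8 CPM in shNC cells, were those that fell. With library totals alone neither was called, without the second library of either group S1PR4 was not called, and CXCR1 was not called without any 1 of the 4 libraries, without the filter or in DESeq2. In the list of CXCR4 signalling and desensitization 3 of 32 rose and 2 fell, with a median of 0.066. ARRB1, the arrestin that uncouples receptors from G proteins, had 442 and 380 CPM in shANP32B cells, against 233 and 243 CPM in shNC cells (log2 fold change 0.79, SE 0.11, adjusted p = 3.60e-04, edgeR). The GTPase gene RAC1 rose by 0.52, while the inhibitory G protein gene GNAI3 and the G protein regulator RGS19 fell by 0.44 and 0.59. RAC1, GNAI3 and RGS19 were not called without the second shANP32B library, GNAI3 also not without the first and RGS19 not when scaled by library totals alone. Without the second shNC library 8 genes of this list fell. CXCL12, the ligand of CXCR4, was not among the human genes listed, so it has no value in KU812 cells.

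Genes that activate integrins or tie them to actin rose in 5 of 29 cases and fell in 2, with a median of 0.17. RAP1GAP, which switches off the integrin-activating GTPase RAP1, had 29.7 and 19.4 CPM in shANP32B cells, against 61.3 and 50.8 CPM in shNC cells (log2 fold change -1.19, SE 0.19, adjusted p = 8.64e-04, edgeR). PXN, the focal adhesion adaptor paxillin, fell by 0.80. ZYX, the adhesion protein zyxin, and RASGRP2, an exchange factor that loads RAP1, rose by 0.51 and 0.47. With either shANP32B library left out, 1 gene of this list rose. Among 17 other integrin subunits 2 rose and 0 fell, ITGA9 by 1.19 and ITGB3, the beta chain of the platelet fibrinogen receptor, by 0.42. Both lost their calls without the second shANP32B library and without the second shNC library. The direction of this list's calls also changed with the library left out. The 17 genes gave 5 with an unadjusted p under 0.05 (edgeR), beside 5047 of the 16529 genes tested. DESeq2 called 2 of the list higher, beside 1179 of 20296 genes.

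Selectins and their ligands were called in 3 of 22 cases, beside 16.6% of all genes tested. CD34, a sialomucin that also marks stem cells, had 3.70 and 2.30 CPM in shANP32B cells, against 11.9 and 9.44 CPM in shNC cells (log2 fold change -1.83, SE 0.29, adjusted p = 0.00106, edgeR). SELP, the gene for P-selectin, to which PSGL-1 binds, rose by 0.82 and the GDP-fucose transporter gene SLC35C1 by 0.66, and both lost their calls without the first shANP32B library. Of 14 genes around CD44 and hyaluronan 4 rose and 2 fell. EZR, which encodes the CD44-binding linker ezrin, was read at 190 and 191 CPM in shANP32B cells, against 354 and 388 CPM in shNC cells (log2 fold change -0.96, SE 0.10, adjusted p = 5.25e-05, edgeR). MMP14, a membrane protease that can cleave CD44, had 188 and 245 CPM in shANP32B cells, against 98.0 and 142 CPM in shNC cells, a rise of 0.85. HYAL3 of the hyaluronidase family rose by 0.52, with its call lost without either shANP32B library, and SPP1, the gene of the CD44 ligand osteopontin, fell by 2.10 at a level under 5 CPM. Among 8 integrin ligands 1 fell, ICAM3, by 0.47, with its call lost without either shANP32B library, and ICAM1 at 0.40 was not called (adjusted p = 0.0744, edgeR).

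**Figure D3:**
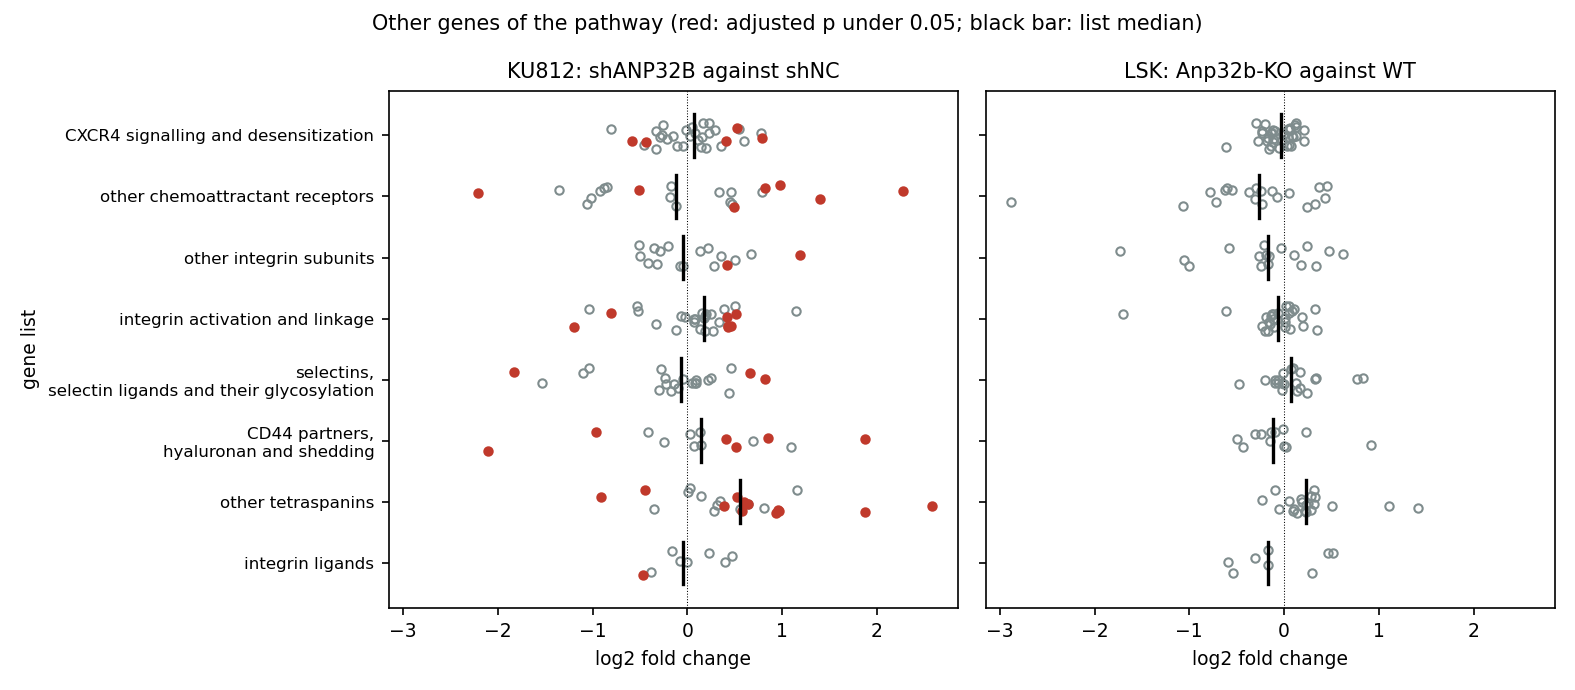
Log2 fold changes of single genes (points) in 8 lists of other homing and adhesion genes, in KU812 cells on the left and in LSK cells on the right; red marks an adjusted p under 0.05 and black bars mark list medians. The tetraspanin median is 0.55 in KU812 cells and 0.23 in LSK cells, and no LSK point is red.

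Markers of other blood cells stood beside these genes in KU812 cells. The summed level of the 10 basophil and mast cell markers was 5908 and 5904 CPM in shANP32B cells, against 5164 and 4715 CPM in shNC cells. The 10 neutrophil and monocyte markers listed summed to 126 and 147 CPM in shANP32B cells, against 125 and 121 CPM in shNC cells. Of the 9 tested 2 rose, S100A8 with 7.10 and 6.33 CPM in shANP32B cells, against 0.930 and 1.38 CPM in shNC cells, and S100A9 with 4.01 and 3.03 CPM in shANP32B cells, against 0.644 and 0.773 CPM in shNC cells. The median log2 fold change of these 9 was 0.83, and 5 had both shANP32B libraries above both shNC libraries. Over all genes tested 7.53% were called higher and 29.5% had both shANP32B libraries above both shNC libraries. The 3 B cell markers listed summed to 17.8 and 19.3 CPM in shANP32B cells, against 30.4 and 38.8 CPM in shNC cells. The sums of T and NK cell, stromal and endothelial, and LSK gate markers ran from 70.6 to 73.4, from 468 to 483 and from 306 to 376 CPM in shANP32B cells, against 62.9 to 84.0, 448 to 544 and 403 to 424 CPM in shNC cells. The lower LSK gate sum did not hold for most of its genes. Of the 7 tested, 5 had both shANP32B libraries above both shNC libraries and 2 had both below. The median log2 fold change of these 7 was 0.73, with 1 called lower and 2 higher. At most 1 marker of a list was at 0 in a library. Their part in the members' values was not tested.

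The LSK comparison asks the same of normal stem and progenitor cells labelled Anp32b-KO, in which Anp32b reads were lower but still present. Cxcr4 and Cd44 had the lowest fold changes among the members, and both rested on the first WT library. None of the 10 was called (edgeR, 0 lower and 0 higher, beside 0% of the 14598 genes tested in each direction), and DESeq2 called 0. An unadjusted p under 0.05 (edgeR) was found for 1 of the 10, beside 657 of the 14598. Both KO libraries lay below both WT libraries for 3 members, beside 15.6% of all genes tested, and above for 1, beside 17.7%. The median log2 fold change of the 10 was -0.076, beside -0.0080 for all genes tested. Those counts are read as a description only, since the members were listed with this comparison known too.

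The first WT library stood apart. Across genes, the KO libraries had a Spearman rho of 0.987 with each other, the WT libraries one of 0.977, and pairs of a KO with a WT library 0.979 to 0.987. These rho values do not tell which WT library departed. Immunoglobulin genes summed to 5225 and 6445 CPM in the KO libraries, against 14820 in the first and 3239 CPM in the second WT library. The 10 B and plasma cell markers summed to 291 and 320 CPM in the KO libraries, against 617 and 171 CPM in the WT libraries. In both sums the first WT library lay above both KO libraries and the second lay below them.

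Cxcr4 (ENSMUSG00000045382.6, chromosome 1 of GRCm38, 128588199 to 128592293, minus strand) was read at 66.6 and 54.0 CPM in KO cells, against 186 and 69.0 CPM in WT cells. The first WT library was alone at a high level, while the second WT library lay close to the KO libraries. The log2 fold change was -1.09 (SE 0.39, interval -2.0 to -0.17), and it was -0.20 without the first and -1.63 without the second WT library. Cd44 (ENSMUSG00000005087.17, chromosome 2, 102811141 to 102901665, minus strand) followed the same pattern, at 193 and 183 CPM in KO cells, against 348 and 204 CPM in WT cells. Its log2 fold change of -0.56 (SE 0.24) was -0.13 without the first WT library and -0.89 without the second. Without the second WT library both genes were called, and without the first neither was. The part of the immunoglobulin and B cell signal of the first WT library in these values was not tested.

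**Figure D4:**
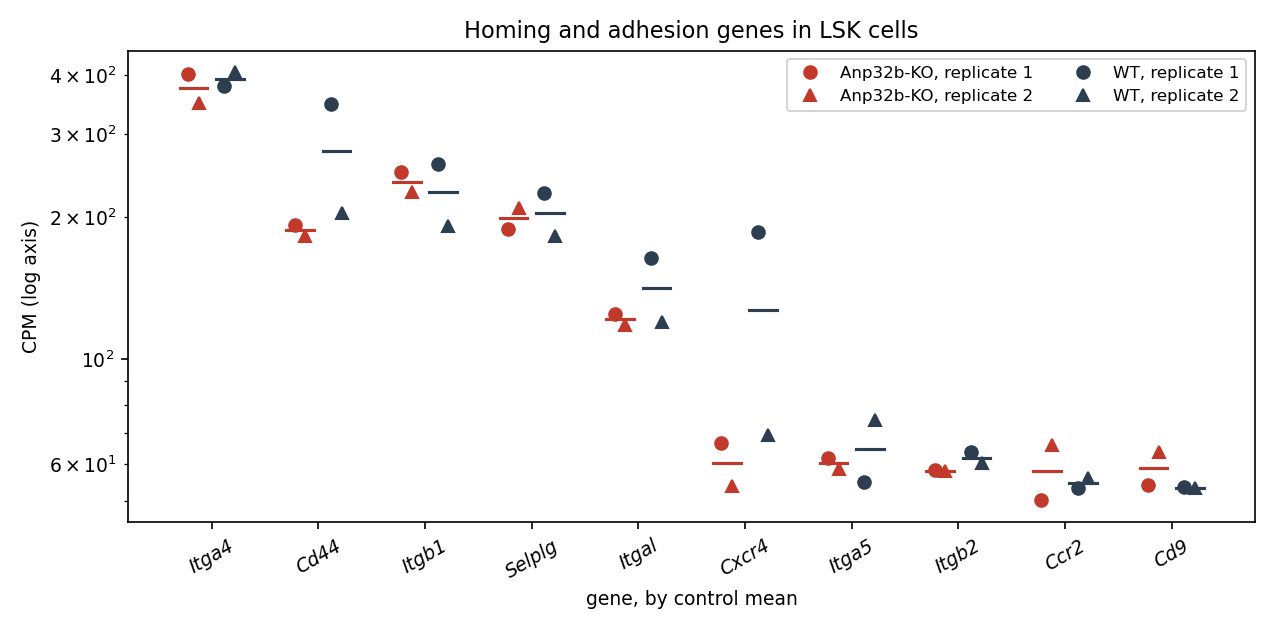
CPM on a log axis for the 10 genes in LSK cells, with points for the single libraries (red Anp32b-KO, dark WT; circle replicate 1, triangle replicate 2) and bars for group means (n = 2). The first WT library stands alone for Cxcr4, at 186 CPM, and for Cd44, at 348 CPM.

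The integrin genes of LSK cells lay close together. Itga4 had 403 and 349 CPM in KO cells, against 379 and 406 CPM in WT cells, with a log2 fold change of -0.061 (interval -0.42 to 0.30). Itgb1 was read at 250 and 226 CPM in KO cells, against 260 and 192 CPM in WT cells (0.075, interval -0.34 to 0.49). Both genes overlapped between the groups. Itga5 overlapped as well, at 61.7 and 58.7 CPM in KO cells, against 55.1 and 74.3 CPM in WT cells (-0.10, interval -0.49 to 0.29). The ratio of Itga4 to Itgb1 reads was 1.61 and 1.54 in KO cells, against 1.46 and 2.11 in WT cells, and overlapped.

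Itgb2 had 58.2 and 58.1 CPM in KO cells, against 63.6 and 60.3 CPM in WT cells, and its small difference (-0.091, interval -0.39 to 0.21) left the groups apart. Itgal stood at 125 and 118 CPM in KO cells, against 164 and 120 CPM in WT cells, with the first WT library alone at the top, and its log2 fold change of -0.23 was 0.013 without that library. Selplg overlapped at 189 and 209 CPM in KO cells, against 225 and 183 CPM in WT cells (-0.038, interval -0.41 to 0.33). Ccr2 had 50.3 and 66.0 CPM in KO cells, against 53.5 and 56.2 CPM in WT cells, and overlapped (0.087, interval -0.29 to 0.47). Cd9 was read at 54.1 and 63.5 CPM in KO cells, against 53.6 and 53.3 CPM in WT cells, with both KO libraries above by a small margin (0.14, interval -0.19 to 0.47). Each of these intervals holds differences of either sign, which were not detectable with 2 libraries a group. Whether a member's change differed between KU812 and LSK cells was not tested, since the members were chosen with both known.

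**Figure D5:**
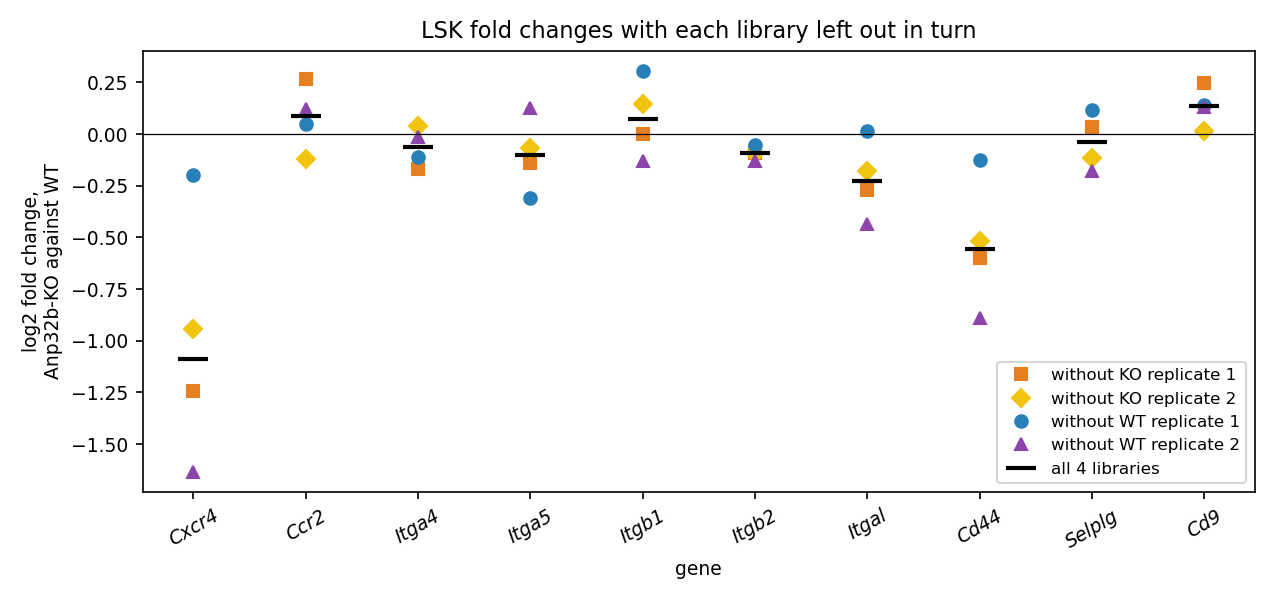
Log2 fold change, Anp32b-KO against WT, of the 10 genes in LSK cells with all 4 libraries (black bar) and with each library left out in turn (coloured points). Cxcr4 runs from -1.63 without the second WT library to -0.20 without the first, and Cd44 from -0.89 to -0.13.

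Per length of transcript, the members can be ordered in the mouse cells. Divided by the kilobases of all annotated exons (GENCODE M21), the level was highest for Itgb1, with a median over the 4 LSK libraries of 58.4 CPM per kilobase and a range of 47.1 to 63.6. Selplg (46.5), Cxcr4 (37.5, range 29.9 to 103), Cd44 (29.3), Itga4 (28.0) and Cd9 (26.3) followed, and each of these 6 genes overlapped its neighbour in the order. Itgb2 (19.4) and Itgal (18.7), the partners in LFA-1, overlapped each other and lay below Cd9. Itga5 (12.2) lay below Itgal, and Ccr2 (8.11, range 7.45 to 9.77) lay lowest without overlap. Cells that use shorter transcripts than the full set of exons, as the 13978 bases of Itga4 allow, would place a gene higher.

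Among the other homing and adhesion genes of LSK cells 173 of 196 were listed and 160 tested. None was called in edgeR or in DESeq2. An unadjusted p under 0.05 (edgeR) was found for 10 of the 160, beside 657 of the 14598 genes tested. Calls with a library left out are given below, beside those of all genes. The median log2 fold change of the 160 was -0.017, beside -0.0080 for all genes. In the tetraspanin list 18 of 21 fold changes were above 0, beside 7083 of 14598 over all genes tested. The list median was 0.23, with Cd81 at 0.25 and Tspan15 at 1.42. For Cd81 the levels were 102 and 112 CPM in KO cells, against 94.1 and 86.1 CPM in WT cells. Tspan15 stood under 1 CPM in every LSK library.

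Of the chemoattractant receptors (median -0.27 over 20 genes) Ccr7, a lymphoid homing receptor, was read at 1.38 and 1.33 CPM in KO cells, against 17.6 and 2.19 CPM in WT cells, so that the first WT library set its log2 fold change of -2.88, which was -0.70 without that library. Ccrl2 had 34.3 and 31.7 CPM in KO cells, against 42.0 and 43.0 CPM in WT cells, at -0.37. Mmp14, whose human counterpart rose in shANP32B cells, had 16.0 and 18.6 CPM in KO cells, against 6.62 and 11.9 CPM in WT cells (log2 fold change 0.91, SE 0.30), and Spp1 had 16.1 and 14.5 CPM in KO cells, against 21.3 and 22 CPM in WT cells (-0.50, SE 0.19). These are the 2 genes of the CD44 list with the smallest p, neither of them called.

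In the other 5 lists the members with the smallest p were not called either. Of 17 integrin subunits (median -0.17), Itgb5 stood at 0.62 and Itgad, at 1.15 CPM or less in every library, at -1.73. Of 27 integrin activation genes (median -0.067), Sipa1, a RAP1-inactivating protein gene, stood at 0.32. The T cell adaptor Skap1, at 2.36 CPM or less in every library, stood at -1.70. Of 21 selectin genes (median 0.073), Podxl, a sialomucin related to CD34, stood at 0.77 and the tyrosine sulfotransferase gene Tpst2, of the family that sulfates PSGL-1, at 0.34. In the list of 34 CXCR4 signalling genes (median -0.034) the kinase adaptor Pik3r5 stood at -0.23 and Rgs14 at 0.21, while the ligand Cxcl12 was near the floor at 1.14 and 1.82 CPM in KO cells, against 3.41 and 1.05 CPM in WT cells. Of 8 integrin ligands (median -0.17), Icam2 stood at -0.30 and F11r at 0.52.

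Markers of mature cells stood beside these values. The 14 neutrophil and monocyte markers listed summed to 1217 and 1078 CPM in KO cells, against 1645 and 1587 CPM in WT cells, and of the same 14 genes 11 had both KO libraries below both WT libraries, beside 15.6% of all genes tested. The 9 stromal and endothelial markers listed summed to 185 and 168 CPM in KO cells, against 240 and 210 CPM in WT cells, and the 12 T and NK cell markers to 129 and 160 CPM in KO cells, against 186 and 123 CPM in WT cells. Of those tested, 7 of 7 stromal and 9 of 11 T and NK cell fold changes were below 0, beside 7481 of 14598 over all genes. Their medians were -0.34 and -0.82, and none was called. Both KO libraries lay below both WT libraries for 4 of the 7 and 2 of the 11. The 7 basophil and mast cell markers listed summed to 734 and 683 CPM in KO cells, against 597 and 717 CPM in WT cells. Within that list Hdc (-0.49), Ms4a2 (-0.78) and Cpa3 (-0.78), which encode a histamine enzyme, an IgE receptor chain and a mast cell protease, had both KO libraries below both WT libraries and were not called. The median log2 fold change of the 7 was -0.29, with 4 below 0 and 3 above. Those above were Gata2 (0.30), Il3ra (0.10) and Kit (0.094). At most 1 marker of a list was at 0 in a library. The members are surface genes shared by many blood cells, and Cd44, Itgb2, Itgal and Selplg are among those that mature leukocytes express. The part of mature cells in the values of any member was not tested.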

How the data were processed

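The authors deposited raw counts, whole numbers listed by gene symbol, in 1 table per library (per the file headers and the values). HISAT2, TopHat, Cufflinks and DESeq and the builds GRCm38 and GRCh38 are named in the submitters' processing notes with neither role nor version. Strand setting, counting tool and the handling of shared reads were not given in the sources used here, which leaves overlapping genes uncertain. The KU812 and LSK libraries were fitted separately, using edgeR 4.0.16 under R 4.3.3 (filterByExpr, TMM, quasi-likelihood test, Benjamini-Hochberg over all genes tested, threshold 0.05), after a check on simulated counts. CPM uses TMM-scaled library sizes. Log2 fold changes carry edgeR's default prior count, and the SE and 95% interval belong to the unmoderated coefficient. Intervals and floors of 3 counts cover counting error or the spread between libraries only.

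Members and lists (8 pathway lists, 6 marker lists) were chosen with earlier results of these data known. The other named genes of a list are up to 4 with the smallest p past the threshold or, where fewer than 2 pass, the 2 with the smallest p. TSPAN14, TSPAN18, LTB4R, CXCR1, S1PR4, S100A8, S100A9, MS4A2 and CPA3 with their mouse counterparts, and RNASE3, Hdc and Cxcl12 were named after their values were seen. Alternatives were DESeq2 1.42.0, its size factors, library totals, no filter, a replicate block and leaving out each library. No human sequences or coordinates were used here.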

Additional observations from a re-analysis of the deposited data

Results flagged for a closer look

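For 6 of the named pathway genes and 4 of the named cell type markers both libraries of the perturbed group lay on 1 side of both controls in KU812 cells and on the opposite side in LSK cells. The difference between the experiments was not tested for any of them. Over all genes tested, the groups did not overlap in 58.5% in KU812 cells and in 33.2% in LSK cells, in either direction. The share of all genes on opposite sides was not counted, so nothing is read from the number of genes named here. RGS19 had a log2 fold change of -0.59 in KU812 cells and Rgs19 of 0.13 in LSK cells. CCRL2 stood at 0.82 and Ccrl2 at -0.37, S1PR4 at -0.51 and S1pr4 at 0.45, PXN at -0.80 and Pxn at 0.20, ICAM1 at 0.40 and Icam1 at -0.17, and ICAM2 at 0.23 and Icam2 at -0.30. Among the markers S100A8 stood at 2.54 and S100a8 at -0.47, S100A9 at 2.31 and S100a9 at -0.58, MS4A2 at 0.43 and Ms4a2 at -0.78, and CPA3 at 1.06 and Cpa3 at -0.78. RGS19, CCRL2, S1PR4, PXN, S100A8, S100A9 and CPA3 were called in KU812 cells, ICAM1, ICAM2 and MS4A2 were not, and no LSK value was called. Other genes of the lists, not named in the text, can meet the same description. None of the 10 members met that description.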

How the results depend on the processing

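The 5 lower and 1 higher member calls in KU812 cells held under DESeq2, its size factors, library totals, no filter and the replicate block. Leaving out a library gave 4 to 5 lower and 0 to 1 higher member calls. Over all KU812 genes the count of 2741 was 1621 and 1413 without the first and second shANP32B library, and 3282 and 4047 without the first and second shNC library, and in the pathway lists 9 to 26 genes were lower and 18 to 38 higher. With the replicate number as a block 4164 genes passed in KU812 cells, 26 pathway genes were lower and 43 higher, and ICAM1 was called. Same-numbered libraries share only a number: across genes, the replicate differences of the 2 groups correlated at 0.151 in KU812 and -0.0749 in LSK cells, and no label pairs them.

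In LSK cells 0 genes passed. DESeq2 called 15 and the replicate block 15, with 0 members and 0 pathway genes among either, and both called Anp32b, as did leaving out either WT library. Leaving out a library gave 0 to 830 genes (830 without the second and 36 without the first WT library, 5 without the first KO library), 0 to 2 lower and 0 higher members, and 0 to 7 lower and 0 to 4 higher pathway genes. The Selplg value turned to 0.010 with library totals. With a library left out, log2 fold changes that changed sign ran from -0.12 to 0.27 for Ccr2, -0.17 to 0.038 for Itga4, -0.31 to 0.13 for Itga5, -0.13 to 0.31 for Itgb1, -0.43 to 0.013 for Itgal, -0.18 to 0.11 for Selplg and -1.19 to 0.49 for Cxcl12. In KU812 cells they ran from -0.083 to 0.084 for ITGA5, -0.068 to 0.077 for ITGB1 and -0.38 to 0.060 for CD9. The cause was not tested. A group left with 1 library is assumed to vary like the other. Depth limits CXCR4 in shANP32B cells, CCR2 and CD9 in KU812 cells most.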
